A study of Mus musculus with 8 samples.

Results

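The Rab GTPases of membrane traffic were described by the accessibility of the peaks assigned to their genes in microglia of Nlrp3 knockout and wild-type mice. The members were all genes in the deposited peak table whose name begins with Rab and a digit, leaving out the Rab3 GTPase-activating and Rab3-interacting genes, the Rab11 family interacting proteins and pseudogenes. The rule found 56 genes of 16095 with an assigned peak, and 205 peaks of 67822. Of these 56 genes, 54 encode Rab GTPases and 2, Rab10os and Rab26os, are antisense RNAs. The assay was ATAC-seq, which reads out open chromatin through the cuts of a transposase, on CD11b+ forebrain cells isolated on magnetic columns. The 8 libraries were 4 from wild types with C57BL/6N genetics and 4 from Cias1-knockout mice, named Nlrp3-/-; Cias1 is another name of Nlrp3, and the knockout line is credited to Millennium Pharmaceuticals. No age, treatment or statement on the strain of the knockout line is given in the sources used here, and none ties replicates to different animals. The p-values therefore cover the spread among these libraries only, which may be technical in part.

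Rab proteins are small GTPases that mark the membranes of a cell and switch between a GTP-bound form on the membrane and a GDP-bound form held in the cytosol by escort proteins. Exchange factors switch them on, GTPase-activating proteins switch them off, and the GTP-bound form recruits effectors that tether, move or fuse vesicles. In microglia, the resident macrophages of the brain, this traffic serves the uptake and digestion of debris, the recycling of receptors and the release of cytokines. Nlrp3 senses danger signals and assembles the inflammasome that bears its name, which matures interleukin-1 beta through caspase-1.

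The promoter windows of 4 genes are shown first, as examples in which a factor's motif stood under an accessible peak. Windows of 300 bases, from 250 before to 50 after each annotated start, were taken from RefSeq (GRCm38.p6), and 46 of the 56 Rab genes matched, with 58 windows. Rab5a starts fusion of early endosomes (chr17:53478984-53479283, plus strand). Rab21 acts in the endocytosis of integrins (chr10:115315542-115315841, minus strand). Rab24 acts in autophagy (chr13:55321931-55322230, minus strand). Rab32 acts on lysosome-related organelles (chr10:10558158-10558457, minus strand). Capitals mark the CLEAR motif, an extended palindrome around CACGTG bound by the lysosomal regulator TFEB and its relatives, in Rab5a, Rab21 and Rab24, and GAGGAAGT, a site of the myeloid factor PU.1, in Rab32. Each sequence reads 5′ to 3′ on the strand of the gene.
Rab5a: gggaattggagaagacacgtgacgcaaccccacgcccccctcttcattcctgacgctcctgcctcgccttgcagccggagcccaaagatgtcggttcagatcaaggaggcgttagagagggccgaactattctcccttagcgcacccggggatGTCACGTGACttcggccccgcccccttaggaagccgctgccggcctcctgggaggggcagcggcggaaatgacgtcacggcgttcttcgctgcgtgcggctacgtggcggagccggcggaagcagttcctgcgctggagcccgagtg
Rab21: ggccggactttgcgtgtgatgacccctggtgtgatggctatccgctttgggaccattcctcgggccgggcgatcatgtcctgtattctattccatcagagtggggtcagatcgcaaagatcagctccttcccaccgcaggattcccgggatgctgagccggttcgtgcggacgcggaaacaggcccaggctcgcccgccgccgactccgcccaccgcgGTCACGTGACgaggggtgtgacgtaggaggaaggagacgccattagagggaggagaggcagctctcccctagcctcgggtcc
Rab24: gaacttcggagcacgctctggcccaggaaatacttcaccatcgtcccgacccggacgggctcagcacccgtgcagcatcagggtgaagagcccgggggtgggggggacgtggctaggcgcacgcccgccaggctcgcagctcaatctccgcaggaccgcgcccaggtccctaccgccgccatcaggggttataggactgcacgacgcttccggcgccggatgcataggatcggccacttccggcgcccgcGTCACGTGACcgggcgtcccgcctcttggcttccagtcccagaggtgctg
Rab32: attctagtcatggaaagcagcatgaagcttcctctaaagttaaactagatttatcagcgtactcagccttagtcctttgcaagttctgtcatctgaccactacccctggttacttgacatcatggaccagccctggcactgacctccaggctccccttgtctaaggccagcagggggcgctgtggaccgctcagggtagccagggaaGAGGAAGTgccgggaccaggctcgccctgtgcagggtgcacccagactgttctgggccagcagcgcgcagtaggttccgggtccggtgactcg

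The first base of the capitals was position 154 of the Rab5a window, 219 of the Rab21 window, 251 of the Rab24 window, which is the annotated start itself, and 208 of the Rab32 window. In all 4 genes the whole match lay inside a deposited peak. The peak over the Rab5a match (chr17:53478943-53479221) held 49.5 ± 4.14 CPM in wild type and 55.0 ± 6.06 CPM in knockout (SD, n = 4 libraries each), where CPM is tags per 1000000 tags in tested peaks after scaling. The peak over the Rab32 match (chr10:10558109-10558378) held 74.3 ± 10.8 CPM in wild type and 74.9 ± 6.48 CPM in knockout. Both promoters were thus open in both genotypes, and their levels overlapped between genotypes. The Rab21 peak was lower, at 14.3 ± 1.69 CPM in wild type and 12.4 ± 2.71 CPM in knockout. The Rab24 window lay under a peak assigned to its neighbour Prelid1 (chr13:55321897-55322139), which held 12.8 ± 3.60 CPM in wild type and 13.5 ± 4.07 CPM in knockout, so the Rab24 sum in the plots of the family does not contain the annotated start.

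The search covered 10 motifs on both strands. The CLEAR palindrome as printed in capitals stood in 3 of the 58 Rab windows (5.17%) and in 0.326% of the 32851 windows of all genes. The shorter CACGTG, which lies within it, stood in 12.1% of the Rab windows and 7.15% of all windows. GAGGAAGT stood in 5.17% of the Rab windows, those of Rab32, Rab2b and Rab26os, and in 3.2% of all windows. GGGCGG, the GC-box bound by Sp1, stood in 67.2% and 35.7%, and ATTGG, the CCAAT box read on the other strand, in 43.1% and 37.4%. The other motifs were CCGGAAGT of ETS factors (3.45% of Rab windows and 3.89% of all), TGACGTCA of CREB (3.45% and 1.79%), TGANTCA of AP-1 (3.45% and 7.81%), the YY1 motif (1.72% and 0.633%) and the NRF1 motif, which stood in 0 Rab windows and 0.971% of all. The GC content of the Rab windows had a median of 61.2%, against 52.7% over all windows and 56.3% over the 21263 windows of protein-coding genes, and the CpG count a median of 20 against 7 and 13. In those protein-coding windows the CLEAR palindrome stood in 0.419%, CACGTG in 7.84%, GAGGAAGT in 3.13%, GGGCGG in 46.2% and ATTGG in 38.2%. CCGGAAGT stood in 5.15% of them, TGACGTCA in 2.23%, TGANTCA in 6.99%, the YY1 motif in 0.889% and the NRF1 motif in 1.33%. Windows of the same gene overlapped in Rab43 and in Rab7. These shares are descriptions of letters in a window and were not tested.

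Of the 58 windows, 45, from 40 genes, overlapped a peak by at least 1 base, and 13 did not. The windows under a peak had a median of 24 CpG and the 13 others a median of 9. Of the 45, 3 windows, those of Rab24, Rab13 and Rab26os, lay only under a peak assigned to another gene. The proximal window of Rab27a and its downstream alternative window both lay outside every peak; the peak called its promoter, at chr9:73044155-73044398, was centred 534 bp upstream of the start.

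The labels were first checked with the targeted gene. At the Nlrp3 promoter peak chr11:59541383-59541657, wild-type libraries had 58 to 80 tags each and the 4 knockout libraries 1 tag together. At a second promoter peak, chr11:59542459-59542809, the numbers were 54 to 69 and 2. The libraries thus all matched their genotype labels. Total tags ran from 11325865 to 15521580 per library, but the share of them in peaks ran from 9.79% to 17.5% in wild type and from 4.96% to 26.2% in knockout, lowest in knockout replicates 1 and 2. Rab peaks together collected from 2602 tags (knockout replicate 2, median 8 per peak) to 12178 tags (knockout replicate 4, median 32 per peak), so the values of these libraries differ in precision. Chromosome Y tags numbered 88 to 255 in wild-type replicates 3 and 4 and knockout replicate 3, and 1 to 13 in the others. Libraries of each genotype thus differed in these tags, so not all can be repeats of the same animal. Which libraries share an animal is not given in the sources used here.

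All 15 microglial marker genes listed had an assigned peak, with 11.3 peaks per listed gene, and no marker of any of 7 cell classes passed the test. Of the defining markers of other cells, 6 of 12 neuronal, 7 of 8 astrocytic, 7 of 10 oligodendrocyte, 8 of 10 vascular, 9 of 10 border macrophage and monocyte, and 4 of 10 granulocyte and lymphocyte genes had a peak. Summed over the list, the microglial markers held 2556 to 2891 CPM in wild type and 2755 to 3076 CPM in knockout, and the border macrophage and monocyte markers 323 to 403 CPM and 268 to 477 CPM. These ranges overlapped. At an unadjusted p under 0.05 there were 5 of the 15 microglial markers, a larger share than the 5.96% of all tested genes. The median log2 fold change over the microglial list was 0.07. In each of the other classes 1 gene was under that p, except granulocytes and lymphocytes with 0. The smallest microglial p was that of Csf1r, the receptor for the growth factors microglia need, which held 249 ± 16.9 CPM in wild type and 297 ± 17.9 CPM in knockout, higher in every knockout library, at 0.26 (SE 0.08, edgeR adjusted p = 0.369). A lower value in a bulk library cannot tell fewer cells with an open site from a site less open in each cell. The part of cell composition in the Rab values was not tested.

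Rab peaks were spread over promoters and gene bodies. By the deposited annotation, 50.7% of the 205 Rab peaks were intronic (42.9% of all peaks), 26.8% were at promoters (19.5%) and 16.6% were intergenic (30.3%). Peaks had a median width of 269 bp. There were 161 Rab peaks in both the wild-type and the knockout peak list, 30 in the wild-type list only and 14 in the knockout list only, which is 78.5%, 14.6% and 6.83%, beside 75.5%, 16.3% and 8.18% of all peaks. A promoter peak was assigned to 46 of the 56 genes, and 17 genes had a single peak.

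Assignment to the nearest start does not always place a peak within its gene. The centre of 107 Rab peaks lay in the RefSeq span of the Rab gene itself, that of 42 in the span of another gene and that of 56 in none. Rab11a, the GTPase of recycling endosomes, had the most peaks with 21, of which 15 lay within Megf11, a neighbouring gene that encodes a transmembrane protein. All 4 peaks assigned to Rab44 lay within Cpne5. Both peaks of Rab2b lay within Tox4, at 134 and 610 bp upstream of the Rab2b start. By the same rule, no peak was assigned to Rab22a, Rab3c, Rab27b, Rab39b or Rab9b in the tables used here. Rab5if, which the naming rule also fits, had no peak either and is not a GTPase.

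Promoter peaks were the most accessible sites of the family. Levels between genes are compared as CPM per kb of peak. The 51 tested Rab promoter peaks had a wild-type median of 76.6 CPM per kb, against 61.3 over all tested promoter peaks. The 124 other tested Rab peaks had a median of 41.2 CPM per kb, against 36.6 over all other peaks. The Rab promoter peak with the highest level belonged to Rab40c, which codes for a substrate adaptor of a ubiquitin ligase, at 478 CPM per kb in wild type and 519 CPM per kb in knockout. Promoter peaks of Rab8a (375), Rab4b (327), Rab5b (326) and Rab3a (316 CPM per kb in wild type) followed.

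Over all assigned peaks, Rab4b had the highest wild-type level of the family, 214 CPM per kb, with a range of 188 to 227 over the 4 libraries. Rab4b returns receptors from early endosomes to the cell surface. Rab2b, which acts at the Golgi, followed at 170 CPM per kb (144 to 186), then Rab40c at 163 (154 to 175), Rab11b of recycling endosomes at 145 (122 to 158) and Rab8a of exocytic transport at 141 (137 to 144). Libraries of Rab4b lay above those of each of the other 4 genes, while the ranges of Rab2b, Rab40c and Rab11b overlapped their neighbours in this order. The lowest levels were those of Rab38 (10.5), Rab36 (12.9), Rab23 (21) and Rab37 (22.3 CPM per kb in wild type). Rab38 acts with Rab32 on melanosomes and other lysosome-related organelles, Rab36 on lysosome positioning, Rab23 in the cilium and Hedgehog signalling, and Rab37 on secretory granules.

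**Figure D1:**
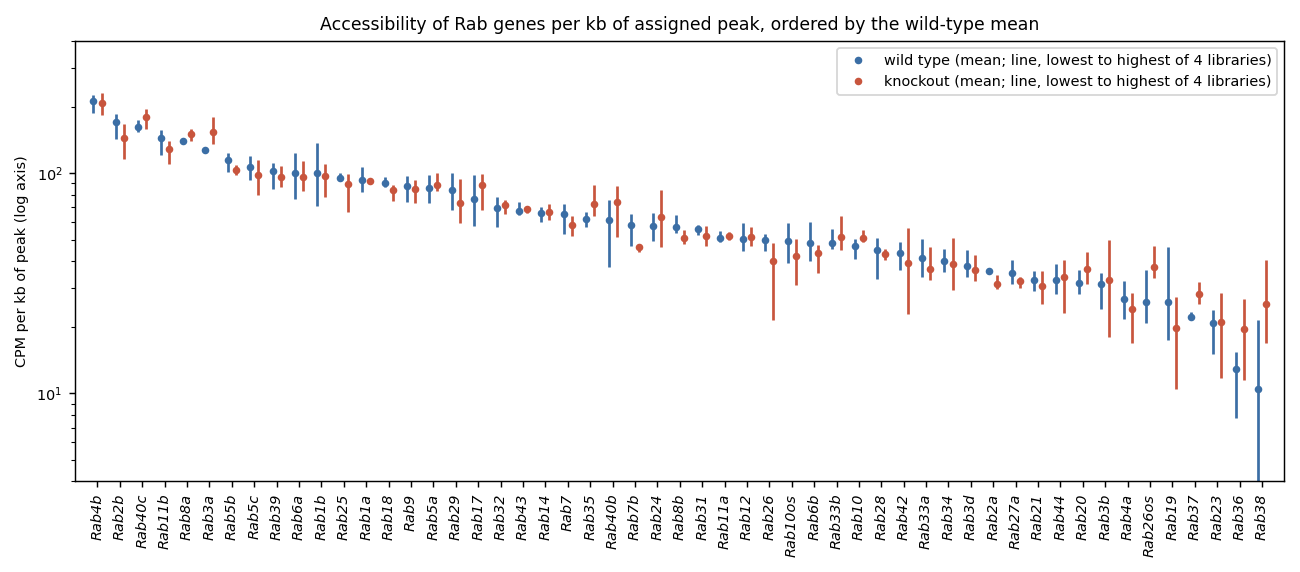
Accessibility of the 53 tested Rab genes, as CPM per kb of assigned peak on a log axis, ordered by the wild-type mean; points are the mean of 4 libraries and lines run from the lowest to the highest library, blue for wild type and red for knockout. Rab4b stands highest at 214 CPM per kb in wild type and Rab38 lowest at 10.5, and its lowest wild-type library, at 0, is off the axis.

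No Rab gene passed the test between knockout and wild type. Tags were summed over all peaks of a gene and tested with edgeR's quasi-likelihood test at a Benjamini-Hochberg adjusted p under 0.05. Of all 15476 genes tested 33 passed (0.213%), and of the 53 Rab genes tested 0 passed. At an unadjusted p under 0.05 there were 4 of 53 Rab genes (7.55%), Rab7b, Rab37, Rab3a and Rab38, against 5.96% of all genes. DESeq2's Wald test called 0 of the 53 Rab genes and 28 of all 15476. At an unadjusted p under 0.05 that test had 3 of the 53 Rab genes and 533 of all 15476. The 3 genes that were not tested, Rab13, Rab15 and Rab30, each had 1 peak with 0 to 14 tags per library. The values of all 8 libraries overlapped between genotypes except in 3 Rab genes (5.66%, against 3.46% of all genes), namely Rab37 and Rab3a, higher in every knockout library, and Rab2a, lower in every knockout library.

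The differences were small and most intervals narrow. The log2 fold change of knockout over wild type, on summed tags, had a median of -0.05 over the 53 Rab genes, with quartiles of -0.13 and 0.06 and a range of -0.34 to 1.15; the median over all genes was 0.00. Of the 53 estimates 32 were below 0 (60.4%, against 49.5% of all genes) and 21 above. With libraries scaled to all their tags instead of tags in peaks the Rab median was 0.05 and that of all genes 0.09, so the sign of the family's median depends on the scaling. The 95% interval lay within a 2-fold change either way in 50 of 53 genes, the exceptions being Rab26os, Rab36 and Rab38, and within a 1.5-fold change in 41. The estimate itself was under 0.25 in size in 46 genes.

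**Figure D2:**
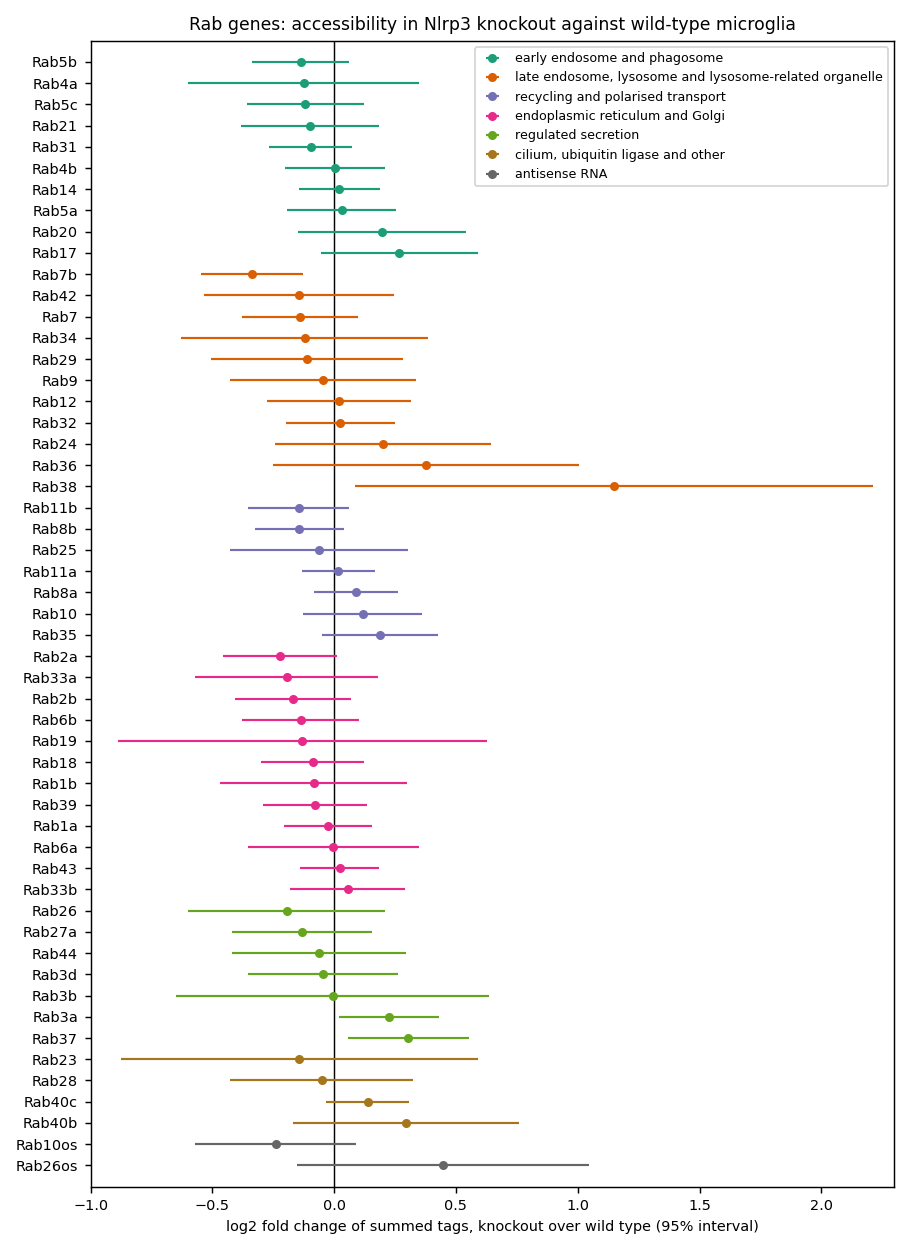
Log2 fold change of summed tags, knockout over wild type, for the 53 tested Rab genes grouped by role; points are edgeR estimates and lines 95% intervals from 4 libraries per genotype. Most points lie within 0.25 of 0, Rab7b lies at -0.34 and Rab38, with a wide interval, at 1.15.

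**Figure D3:**
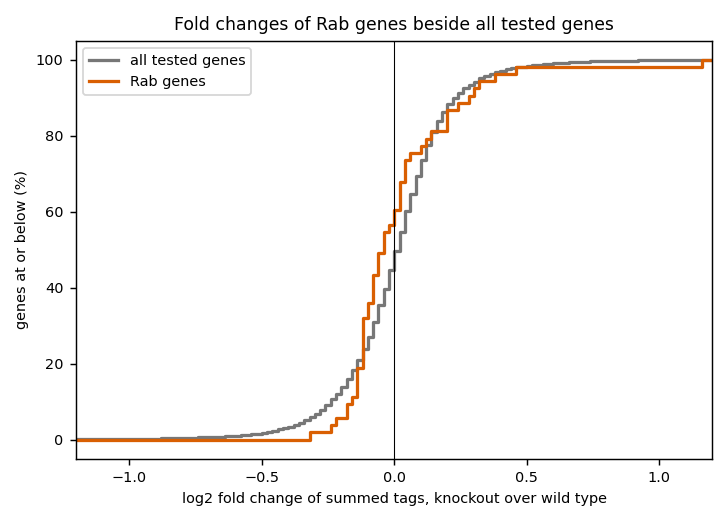
Cumulative share of genes (vertical axis, %) at or below each log2 fold change of summed tags (horizontal axis), for the 53 tested Rab genes in orange and all 15476 tested genes in grey. The Rab curve reaches 60.4% at 0 where that of all genes reaches 49.5%, and its median lies at -0.05.

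As a single quantity, the Rab peaks held a near-constant share of the tags in peaks. The share was 0.367%, 0.391%, 0.387% and 0.387% in wild-type replicates 1 to 4 and 0.368%, 0.367%, 0.368% and 0.374% in knockout replicates 1 to 4. Wild-type replicate 1 lay among the knockout libraries and the other 3 wild-type libraries lay above them. The means were 0.383% ± 0.0107 and 0.369% ± 0.00356 (SD, n = 4), a difference of -0.0140 percentage points, with a two-sided exact permutation p of 0.114, where 4 libraries against 4 cannot go below 0.0286.

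Members were next taken by role, with the roles assigned from general knowledge of the proteins. The early endosome and phagosome genes were Rab4a, Rab4b, Rab5a, Rab5b, Rab5c, Rab14, Rab17, Rab20, Rab21 and Rab31. All 10 were tested, 5 estimates were above 0 and 5 below, and the median log2 fold change was -0.05. Their summed level was 847 to 905 CPM in wild type and 838 to 887 CPM in knockout. Rab5a held 78.0, 89.2, 67.0 and 77.8 CPM in wild type and 76.7, 91.1, 76.2 and 78.5 CPM in knockout. The genotypes overlapped, with replicate 2 highest in each, and the log2 fold change was 0.03 (95% interval -0.19 to 0.26), which is 2.20% higher with bounds of -12.5% and 19.4%. That small value turned to -0.17 when only its peaks outside the promoter were summed.

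Rab4b held 94.1, 114, 109 and 112 CPM in wild type and 92.1, 96.9, 113 and 116 CPM in knockout, a log2 fold change of 0.00 (-0.20 to 0.21). Rab14, which carries cargo between early endosomes, phagosomes and the Golgi, and Rab31, which moves cargo from the Golgi to endosomes, were spread over 10 and 12 peaks. Rab14 had a log2 fold change of 0.02 (-0.15 to 0.19) and Rab31 one of -0.10 (-0.27 to 0.07). Rab17, known from epithelial transcytosis, had the largest estimate of this group, 0.27 (-0.05 to 0.59, edgeR adjusted p = 0.881), from 50.2, 58.1, 34.0 and 38.9 CPM in wild type and 59.0, 40.5, 52.5 and 58.4 CPM in knockout. Both its peaks were intergenic, the ranges of the genotypes overlapped, and without wild-type replicate 3 the estimate was 0.16.

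The late endosome and lysosome group was Rab7, Rab7b, Rab9, Rab12, Rab24, Rab29, Rab32, Rab34, Rab36, Rab38 and Rab42. Of these 11 genes 5 estimates were above 0 and 6 below, with a median of -0.05. The group held the smallest p of the family, that of Rab7b, which in macrophages directs Toll-like receptors to lysosomal degradation and cargo from endosomes to the Golgi. Rab7b (chr1:131688681-131715443) held 164, 156, 118 and 148 CPM in wild type and 120.4, 117, 110.4 and 117 CPM in knockout. Wild-type replicates 1, 2 and 4 stood above all knockout libraries and wild-type replicate 3 stood among them. The log2 fold change was -0.34 with an SE of 0.10 (95% interval -0.55 to -0.13), which is -20.9% (-31.5% to -8.59%), at an unadjusted edgeR p of 0.0027 and an adjusted p of 0.384. The estimate stayed below 0 in all 19 alternative settings, between -0.43 and -0.26, and passed in none, with adjusted p from 0.0743 to 1.00.

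The 9 peaks of Rab7b did not share the difference equally. The intronic peak at chr1:131691318-131691724, 2826 bp into the gene, held 55, 46, 26 and 60 tags in wild type and 8, 12, 35 and 44 tags in knockout, or 27.3, 32.3, 14.8 and 27.9 CPM against 9.65, 17.7, 15.4 and 14.2 CPM. Again wild-type replicate 3 lay with the knockout libraries. For this peak the log2 fold change was -0.83 (SE 0.24, edgeR adjusted p = 0.403). A second intronic peak, at chr1:131702544-131702794, held 16.9, 14.8, 15.4 and 18.2 CPM in wild type and 12.1, 8.86, 8.34 and 11.6 CPM in knockout, without overlap, at -0.67 (SE 0.23, adjusted p = 0.799). In between, the intronic peak at chr1:131700437-131700683 had an estimate of -0.05, and the promoter peak one of -0.39 (-1.15 to 0.37) from 5 to 18 tags per library. The 2 peaks that lay within the neighbouring gene Ctse, which encodes the endosomal protease cathepsin E, had estimates of -0.04 and -0.16.

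Rab7, the GTPase of late endosome and lysosome fusion, held 76.5, 59.5, 81.4 and 73.8 CPM in wild type and 64.9, 57.9, 66 and 71.4 CPM in knockout, with a log2 fold change of -0.14 (-0.38 to 0.10) and overlapping libraries. That estimate was -0.21 without wild-type replicate 2 and -0.08 without wild-type replicate 3. Leaving out knockout replicates 1 and 2 together gave -0.09. One of its peaks, 8648 bp upstream at chr6:88053792-88054044, was lower in every knockout library (13.3, 13.3, 13.6 and 16.8 CPM against 21.9, 16.9, 19.9 and 19.6 CPM), at -0.42 (-0.84 to 0.01). An intronic peak at chr6:88033598-88033836 had an estimate of the opposite sign, 0.41 (-0.03 to 0.84). Neither passed.

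Rab32 held 99.9, 96.6, 73.4 and 87.5 CPM in wild type and 96.8, 96.9, 92.2 and 83.7 CPM in knockout, and most of it came from the promoter peak shown above. The libraries overlapped, and the log2 fold change was 0.03 (-0.20 to 0.25). Its relative Rab38 had the largest estimate of the family, 1.15, but the fewest tags of the 53 tested genes. The single Rab38 peak, at the promoter (chr7:88430132-88430381) and in the knockout list only, held 5, 8, 0 and 6 tags in wild type and 5, 7, 10 and 17 tags in knockout. As only the knockout list brought this peak into the table, its selection favours a higher value in knockout. Rab38 was tested in 13 of the 19 alternative settings. The 95% interval ran from 0.09 to 2.21 and the edgeR adjusted p was 0.797. Without wild-type replicate 3, the library with 0 tags, the estimate was 0.75, and without wild-type replicate 2 it was 1.64. With so few tags, knockout replicates 3 and 4 lay within the wild-type range after scaling.

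**Figure D4:**
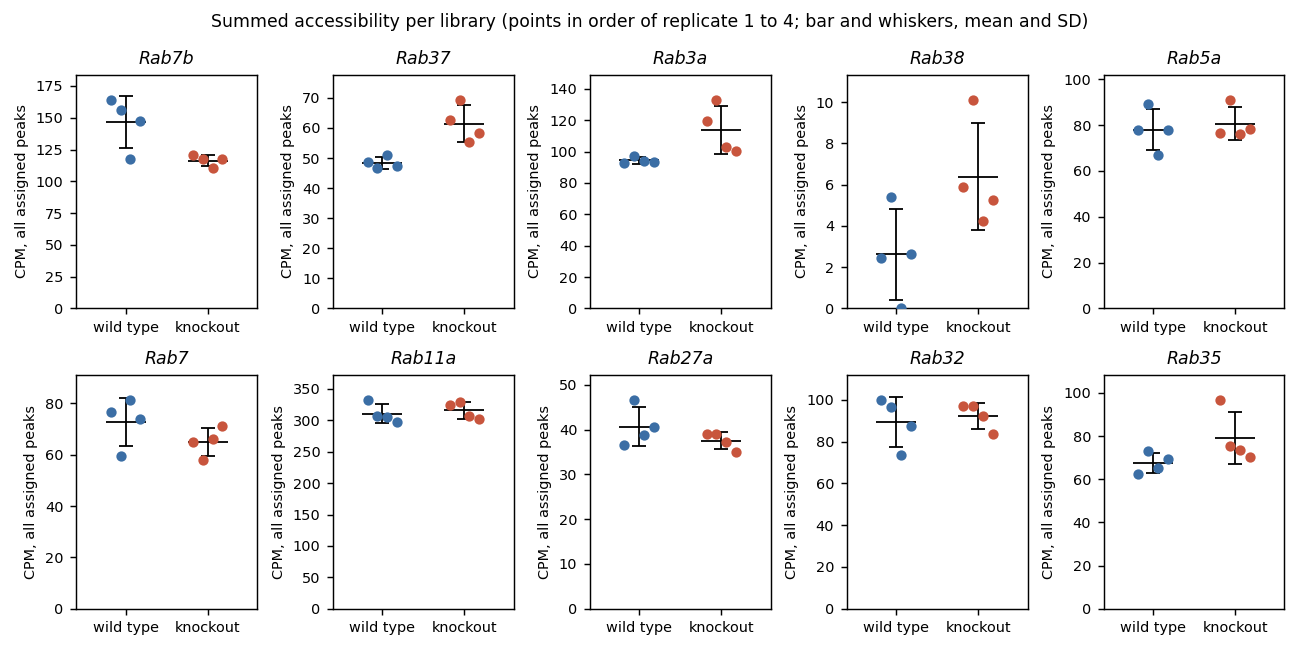
CPM summed over all assigned peaks in each of the 8 libraries for 10 Rab genes; points are replicates 1 to 4 from left to right, blue for wild type and red for knockout, and bars with whiskers are the mean and SD. Rab37 and Rab3a show no overlap between genotypes, and in Rab7b only wild-type replicate 3, at 118 CPM, lies among the knockout libraries.

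The recycling and polarised transport group was Rab8a, Rab8b, Rab10, Rab11a, Rab11b, Rab13, Rab15, Rab25 and Rab35. Of the 7 tested, 4 estimates were above 0 and 3 below, with a median of 0.02 and a summed level of 871 to 901 CPM in wild type and 865 to 903 CPM in knockout. Rab11a held 332, 306, 305 and 298 CPM in wild type and 325, 329.9, 307 and 303 CPM in knockout. These are the highest sums of the family, and the log2 fold change of 0.02 had an interval of -0.13 to 0.17. The promoter peak of Rab11a alone held 19.3 ± 1.75 CPM in wild type and 20.04 ± 5.08 CPM in knockout, so most of the sum came from peaks elsewhere. The peak with the highest level among them, at chr9:64771276, lay 33643 bp upstream, outside any gene, and held 73.8 CPM in wild type and 71.6 CPM in knockout.

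Rab35, which recycles cargo from early endosomes to the plasma membrane, held 62.4, 73.0, 65.4 and 69.4 CPM in wild type and 96.8, 75.2, 73.6 and 70.1 CPM in knockout. The highest library was knockout replicate 1, and replicates of both genotypes met near 70.1 to 73.6 CPM. The log2 fold change was 0.19 (-0.05 to 0.42), and its promoter peak, with 2 to 26 tags per library, had an estimate near 0 at -0.09. Without knockout replicate 1 the Rab35 sum was estimated at 0.10, and without knockout replicates 1 and 2 at 0.09. Rab8b, a close relative of Rab8a, was estimated at -0.14 (-0.32 to 0.04), or -0.08 without wild-type replicate 2, and Rab8a at 0.09 (-0.08 to 0.26). Rab11b was estimated at -0.14 (-0.35 to 0.06), or -0.22 when wild-type replicate 1 was left out and -0.08 when both knockout replicates 1 and 2 were, and the centre of its promoter peak lay within the neighbouring Gm17251.

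The endoplasmic reticulum and Golgi group comprised Rab1a, Rab1b, Rab2a, Rab2b, Rab6a, Rab6b, Rab18, Rab19, Rab30, Rab33a, Rab33b, Rab39 and Rab43. It had the lowest median of the GTPase groups, -0.09. Of its 12 tested estimates 2 were above 0 and 10 below, where 49.5% of all genes were below 0. Group medians were not recomputed with scaling to all tags, under which the family's median changed sign. The summed level was 941 to 1020 CPM in wild type and 904 to 960 CPM in knockout, so the ranges overlapped, and no member passed. Rab2a, which acts at the Golgi and in fusion with lysosomes, held 62.4, 62.8, 60.1 and 60.6 CPM in wild type and 53.1, 59.3, 50.8 and 51.3 CPM in knockout. Every knockout library lay below every wild-type library, by as little as 60.1 against 59.3 CPM, and the log2 fold change was -0.22 (-0.46 to 0.01, edgeR adjusted p = 0.846). At the Rab2a promoter peak (chr4:8535414-8535758) the values were 19.4, 24.6, 25 and 21.4 CPM against 14.5, 17.7, 15.4 and 17.1 CPM, again without overlap, at -0.47 (SE 0.20, adjusted p = 0.974).

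Rab2b was estimated at -0.17 (-0.41 to 0.07), with -0.06 without knockout replicates 1 and 2, -0.10 without knockout replicate 1 and -0.26 without knockout replicate 4. Rab1a, which carries cargo from the endoplasmic reticulum to the Golgi, held 171 ± 19.2 CPM in wild type and 168 ± 3.56 CPM in knockout, at -0.03 (-0.21 to 0.15). Rab43, a Golgi member with 10 peaks, held 185 ± 11.8 CPM in wild type and 188 ± 5.85 CPM in knockout. Of the group, Rab1a and Rab43 had the narrowest intervals. Rab19, with 1 intergenic peak, had the widest, -0.89 to 0.63.

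The regulated secretion group was Rab3a, Rab3b, Rab3d, Rab26, Rab27a, Rab37 and Rab44. Of its 7 estimates 2 were above 0 and 5 below, with a median of -0.05. Rab37, a GTPase of secretory granules in mast cells and of cytokine release in macrophages, held 48.8, 46.6, 51.1 and 47.3 CPM in wild type and 62.6, 69.4, 55.4 and 58.4 CPM in knockout. The genotypes did not overlap, and the 2 knockout libraries with the lowest share of tags in peaks were the highest. Over the whole gene the log2 fold change was 0.30 (SE 0.12, 95% interval 0.06 to 0.55), with an unadjusted edgeR p of 0.0180 and an adjusted p of 0.698.

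**Figure D5:**
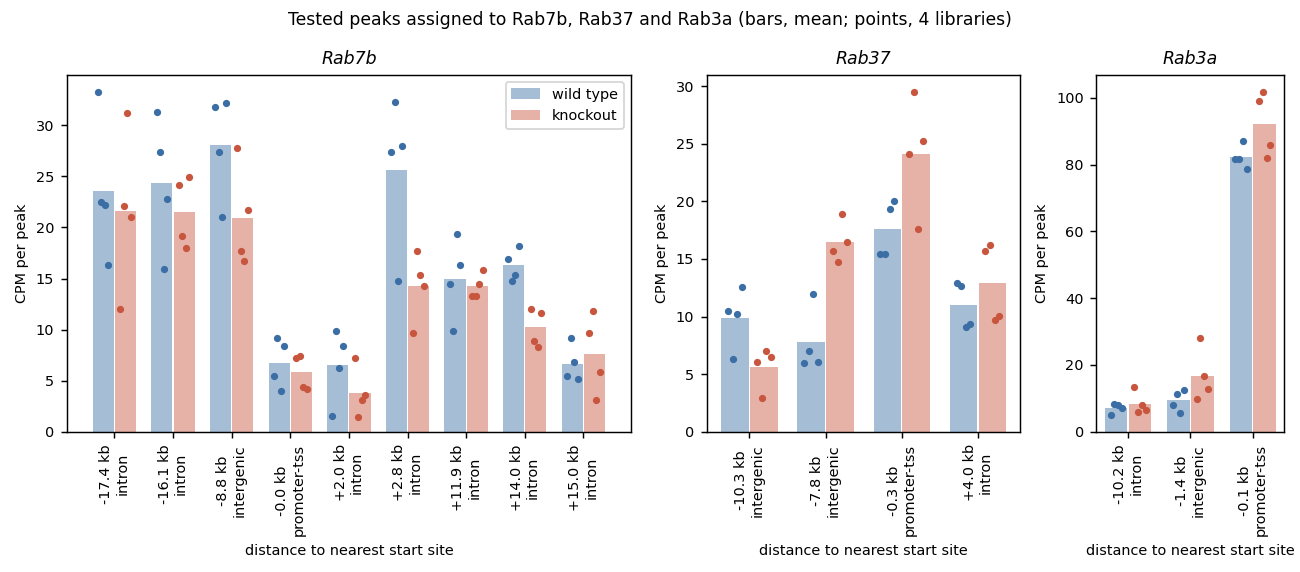
CPM of each tested peak assigned to Rab7b, Rab37 and Rab3a, labelled by its annotation and its distance in kb to the nearest start site; bars are means, points the 4 libraries, blue for wild type and red for knockout. The Rab37 peak 7.8 kb upstream is higher in all knockout libraries while the one 10.3 kb upstream is lower on average.

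One Rab37 peak had the smallest p of all Rab peaks. This intergenic peak, at chr11:115083377-115083861 and 7812 bp upstream of the start, held 12, 10, 21 and 13 tags in wild type and 13, 10, 43 and 51 tags in knockout, or 5.97, 7.03, 12 and 6.06 CPM against 15.7, 14.8, 18.9 and 16.5 CPM. Every knockout library stood above every wild-type library after scaling. Its log2 fold change was 1.13 (SE 0.26, 95% interval 0.59 to 1.67) at an edgeR adjusted p of 0.0940. It passed in 3 of 17 alternative settings: with the share of tags in peaks as a covariate (adjusted p = 0.0473), without knockout replicates 1 and 2 (0.0455), and without wild-type replicate 3 (0.0294). Over all 17 the adjusted p ran from 0.0294 to 1.00 and the estimate from 1.00 to 1.41.

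The next peak, 10350 bp upstream at chr11:115080937-115081225, differed in the other direction, with 10.4, 6.32, 10.2 and 12.6 CPM in wild type and 6.03, 2.95, 7.03 and 6.47 CPM in knockout, at -0.71 (SE 0.31, adjusted p = 0.981). The promoter peak of the downstream Rab37 start, at chr11:115153632-115154138, had an estimate of 0.40 (-0.03 to 0.82). Within 1 Mb of Rab37, 7 of 195 tested peaks passed (3.59%, against 0.17% of all 58135 tested peaks), 4 of them lower in knockout. One of them, assigned to Cd300lf, an inhibitory receptor of myeloid cells, lay inside the span of Rab37 at chr11:115119452-115119769, with a log2 fold change of -0.96 (adjusted p = 0.0313). Of the 56 Rab genes, 8 had a called peak within 1 Mb, and for the 7 others, including Rab11a with 2 of 183, there were 1 or 2. The windows held from 9 tested peaks (Rab28) to 251 (Rab1b). The same count was not made for other genes, so the 8 have no share beside them.

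Rab3a, the GTPase of synaptic vesicles and of other regulated exocytosis, held 92.6, 97.3, 94.2 and 93.3 CPM in wild type and 119, 133, 103 and 100.4 CPM in knockout. All knockout libraries were higher, most so replicates 1 and 2, which had the fewest tags in peaks. Its log2 fold change was 0.22 (SE 0.10, 0.02 to 0.43, edgeR adjusted p = 0.797), or 16.8%. An intergenic peak 1360 bp upstream (chr8:70753189-70753449) was estimated at 0.74 (SE 0.29, adjusted p = 0.918) from 7.95, 11.2, 5.69 and 12.6 CPM against 9.65, 28.0, 16.7 and 12.9 CPM, and the promoter peak at 0.14 (-0.11 to 0.39). Without knockout replicates 1 and 2 the Rab3a estimate was 0.11. Of the 12 neuronal markers 6 had a peak, and these summed to 153 to 186 CPM in wild type and 139 to 176 CPM in knockout. Their summed ranges overlapped between genotypes, and their median log2 fold change was 0.05. Syt1, a calcium sensor of synaptic vesicles, had the smallest p of these 6 and is named for that reason. It was higher in every knockout library, with 10.2 ± 1.74 CPM in wild type and 15.1 ± 2.86 CPM in knockout. Its log2 fold change was 0.62 (SE 0.24, edgeR adjusted p = 0.671). The part of these markers in the Rab3a value was not tested.

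Rab27a, which docks lysosome-related organelles for secretion, held 36.6, 46.6, 38.8 and 40.7 CPM in wild type and 39.0, 39.1, 37.2 and 34.9 CPM in knockout, at -0.13 (-0.42 to 0.16). The libraries overlapped, and the estimate was -0.07 without wild-type replicate 2 and -0.09 without knockout replicate 4. Rab26, of secretory granules, had a promoter peak (chr17:24533638-24533889) with 21, 18, 29 and 26 tags in wild type and 6, 2, 21 and 23 tags in knockout, or 10.4, 12.6, 16.5 and 12.1 CPM against 7.24, 2.95, 9.22 and 7.44 CPM. All knockout libraries were lower, at -0.78 (SE 0.28, edgeR adjusted p = 0.831), while the gene's sum was estimated at -0.20 (-0.60 to 0.21). A peak assigned to Rab44 within an intron of Cpne5 (chr17:29171169-29171432) held 16.9, 19.0, 16.5 and 16.8 CPM in wild type and 10.9, 13.3, 13.6 and 9.38 CPM in knockout, at -0.58 (SE 0.23, adjusted p = 0.916).

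Single Rab peaks as a whole gave the same picture as the sums. Of 175 Rab peaks tested 0 passed, against 99 of 58135 tested peaks (0.17%). DESeq2's Wald test also called 0 Rab peaks, against 65 of all 58135. At an unadjusted p under 0.05 there were 11 (6.29%, against 4.83% of all peaks), and 6 did not overlap between genotypes (3.43%, against 3.17%), of which 5 were lower in knockout and 1, at Rab37, higher. The median log2 fold change of the Rab peaks was -0.05, that of all peaks 0.00, and 61.7% of the Rab estimates lay below 0 against 49.5%. Split by annotation, 0 of 43 Rab genes passed over promoter peaks alone (0.0781% of all genes) with 3 at an unadjusted p under 0.05 (6.98%, against 4.72%). Over the other peaks alone 0 of 42 passed (0.359%), with 2 at an unadjusted p under 0.05 (4.76%, against 6.13%).

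The remaining members were Rab23, Rab28, Rab40b and Rab40c, and the antisense RNAs. Rab40c held 175, 186, 199.5 and 180.4 CPM in wild type and 205, 224, 213 and 181 CPM in knockout, at 0.14 (-0.03 to 0.31), with knockout replicate 4 within the wild-type range; without that library the estimate was 0.21, and without knockout replicates 1 and 2 it was 0.09. Rab26os, whose only peak lay within Rab26, held 5.85, 6.76, 6.38 and 10.2 CPM in wild type and 13, 10.1, 9.31 and 9.58 CPM in knockout. One wild-type library, replicate 4, lay among the knockout libraries. The estimate was 0.45 (-0.15 to 1.04, edgeR adjusted p = 0.895), or 0.68 without that library. The summed peak lay 1077 bp downstream of the Rab26os start, with 7 to 31 tags per library. The Rab26os promoter window overlapped a stronger peak assigned to Traf7, which the sum leaves out. That Traf7 peak held 111 ± 4.85 CPM in wild type and 113 ± 6.66 CPM in knockout, at 0.02 (-0.20 to 0.25). ATAC-seq reads carry no strand of transcription, so a peak shared by a gene and its antisense RNA cannot be told apart.

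The proteins that load, switch and read Rab GTPases were taken from 5 lists. Of 190 listed genes 170 were tested and 0 passed, with 8 at an unadjusted p under 0.05 (4.71%, against 5.96% of all genes) and a median log2 fold change of -0.01. The lists were the membrane and escort machinery (10 tested, median -0.01), exchange factors (51, median 0.00), GTPase-activating proteins (37, median -0.01), effectors of endosomes and lysosomes (41, median -0.05) and effectors of recycling, secretion and the Golgi (32, median 0.01); 1 tested gene is on 2 of them. The smallest p was that of Tbc1d16, a GTPase-activating protein for Rab4a, with 73.6, 77.7, 79.8 and 86.2 CPM in wild type and 123, 103, 101 and 92.7 CPM in knockout. Its libraries did not overlap, and the log2 fold change was 0.37 (SE 0.10, edgeR adjusted p = 0.309).

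Pik3r4, a subunit of the phosphoinositide kinase complex that Rab5 and Rab7 engage, was estimated at -0.61 (SE 0.19, edgeR adjusted p = 0.460) from 30.7, 30.4, 39.9 and 26.1 CPM against 29.5, 15.9, 20.3 and 19.2 CPM. Knockout replicate 1 alone lay in the wild-type range. The other first-ranked genes were St5 among exchange factors at 0.22, Icmt, which methylates prenylated proteins, at -0.34, and Sytl3, a Rab27 effector, at 0.41, with adjusted p of 0.651, 0.797 and 0.722. None of the 5 passed. Called peaks within 1 Mb were counted for the Rab genes only, not for the genes of these lists.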

How the data were processed

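ATAC-seq was measured in 8 libraries. Bowtie2, HOMER and DESeq2 (no versions) and mm10 are the tools and build in the submitters' processing notes. The authors, per the file headers, counted tags with HOMER over the merged IDR peak lists of both genotypes, with at most 3 tags per position, and the deposited raw table holds whole counts per peak. The deposited normalized table holds a signal, the counts scaled by the authors to 1e+07 tags per library, and was used only to check the counts. Alignment settings, any shift of read ends and duplicate removal: not given in the sources used here.

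Counts were added up per assigned gene and tested over the whole table with edgeR 4.0.16 (R 4.3.3): TMM scaling, filterByExpr at a minimum count of 10, quasi-likelihood F test on genotype, Benjamini-Hochberg threshold 0.05. Peaks were tested alike. Intervals are 95% and follow the moderated degrees of freedom. The main test was also run on counts simulated from its own model, which cannot show whether that model suits these libraries. Alternatives covered scaling, filter, DESeq2 1.42.0, robust moderation, a replicate block, covariates, peak classes and left-out libraries. The members, roles and lists were chosen with earlier results of these data known. Text names Rab genes among the 10 smallest p, the 5 highest levels per kb and 6 best-known members, the 6 Rab peaks of smallest p and the first gene of each pathway list; other genes and peaks were chosen after their values were seen. All 8 value columns were matched by name. Counting error is largest in libraries with few tags in peaks.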

Additional observations from a re-analysis of the deposited data

Results flagged for a closer look

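In 4 of 56 groups of 4 libraries checked, 1 library stood apart from the other 3 by Dixon's criterion, the gap to the nearest library over the range, which chance alone meets in about 1 group in 20. For Rab5a, knockout replicate 2 held 91.1 CPM and the other knockout libraries 76.2 to 78.5 CPM. At the Rab44 peak within Cpne5, wild-type replicate 2 held 19.0 CPM and the others 16.5 to 16.9 CPM. The share of peak tags in Rab peaks was 0.367% in wild-type replicate 1 and 0.387% to 0.391% in the others. In knockout replicate 4 that share was 0.374%, with 0.367% to 0.368% in the others.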

How the results depend on the processing

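The number of Rab genes called was 0 in all 19 alternatives and that of pathway genes 0 in all 17. The number of Rab peaks called was 1, the Rab37 peak, with the share of tags in peaks as a covariate, without knockout replicates 1 and 2, and without wild-type replicate 3 (0 to 1 over single left-out libraries), and 0 in the other 14. Over all genes 33 passed, and the count moved to 5 with scaling to all tags, 70 without knockout replicates 1 and 2, and 20 to 42 with 1 library left out (21 without wild-type replicate 3, 20 without knockout replicate 3). Over all peaks 99 passed, against 19 with scaling to all tags, 65 with DESeq2's Wald test, 158 with the covariate, 246 without knockout replicates 1 and 2, and 65 to 123 with 1 library left out. Why these counts moved, beyond the number of libraries and features tested, was not tested.

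With the replicate number as a block, 0 Rab genes, 0 Rab peaks, 38 genes and 140 peaks passed. Same-numbered libraries correlated at 0.01, 0.09, -0.02 and 0.19 in their deviations. The best-correlated knockout library had the same number for wild-type replicates 2 and 4, and another number for replicates 1 and 3. Values from 4 pairs cannot decide whether the numbers pair the libraries.

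Estimates near 0 changed sign. The Rab median was 0.0494 with scaling to all tags. Over promoter peaks only, Rab35 was -0.0235, Rab8b 0.0118 and Rab27a 0.0921. Rab35 has 1 promoter peak, so its -0.0235 here and the -0.09 of the peak test come from the same tags. The fit over promoter sums and the fit over all peaks were scaled separately. Over the other peaks only, Rab4b was -0.0334, Rab8a -0.00129, Rab5a -0.175 and Rab11a -0.0262. Rab4b was -0.00149 with DESeq2, -0.0198 with the replicate block and -0.00593 with the covariate. Without knockout replicates 1 and 2, Rab5a was -0.00459, Rab11a -0.0267 and Rab32 -0.0244, and with a chromosome Y term Rab32 was -7.8e-05. With 1 library left out, Rab4b ran from -0.0562 to 0.050007, Rab5a from -0.0325 to 0.0940, Rab11a from -0.00197 to 0.0492 and Rab32 from -0.0566 to 0.0847. Leaving out libraries from the share of tags in Rab peaks was added after seeing the data: the difference ran from -0.0193 to -0.0114 percentage points and was -0.0119 without knockout replicates 1 and 2 (exact permutation p = 0.400).

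Knockout replicates 1 and 2 hold the fewest tags in peaks, with a median of 8 to 10 tags per Rab peak.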
